A study of Homo sapiens with 54 samples.

Results

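Transcripts of 10 heat shock protein genes were followed in 2 triple negative breast cancer (TNBC) cell lines exposed to the PARP inhibitor olaparib, to cisplatin (CDDP) or to both, and in olaparib resistant (OlaR) cells derived from each line. The genes were chosen by their symbols, with earlier results of these data known, and are HSPA1A, HSPA1B, HSPA8, HSPH1, DNAJB1, DNAJA1, HSPB1, HSP90AA1, HSPD1 and HSPE1. They are 10 of the 27470 genes in the deposited table. All 10 passed the filter on low values in each line, among 13133 genes tested in SUM1315 cells and 13012 in MDA-MB-468 cells. SUM1315 cells carry mutant BRCA1 and MDA-MB-468 cells carry wild type BRCA1. Parental SUM1315 cells were left untreated or were treated overnight with 8 µM olaparib, with 2 or 4 µM CDDP, or with olaparib and either CDDP dose. Parental MDA-MB-468 cells were left untreated or were treated overnight with 3 µM olaparib, with 1 or 2.5 µM CDDP, or with olaparib and either CDDP dose. OlaR SUM1315 cells were kept in 25 µM and OlaR MDA-MB-468 cells in 15 µM olaparib, and were used as such or with the CDDP doses of their parental line. Each of the 18 conditions had 3 libraries, 54 in all, made from the 3′ ends of transcripts. Each line contributed 1 OlaR derivative, which was never sampled without olaparib. Resistance, the higher olaparib concentration and the longer exposure therefore cannot be told apart in any comparison of OlaR with parental cells.

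Heat shock proteins are molecular chaperones that bind unfolded or damaged proteins and help them to fold, to be refolded or to be degraded. The HSP70 proteins work in cycles set by J-domain co-chaperones, which deliver clients and stimulate ATP hydrolysis, and by nucleotide exchange factors, which reset them. HSP90 completes the folding of many kinases and receptors, small heat shock proteins hold clients until HSP70 takes over, and HSP60 with its lid HSP10 folds proteins inside mitochondria. Under proteotoxic stress, the transcription factor HSF1 binds heat shock elements, arrays of alternating GAA and TTC units, upstream of many of these genes. Tumor cells often express these chaperones at high levels.

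The promoters were searched for the letters by which HSF1 recognizes its targets, and matched stretches of 5 genes are shown. RefSeq promoter windows on GRCh38.p14 were found for all 10 genes, and the 250 bases before each start were searched for GAANNTTC and for TTCNNGAA. Each of these motifs reads the same on both strands. The 10 genes had 14 windows, 3 genes having several, and 8 windows, each of another gene, held at least 1 of them. Of the 35116 windows of all genes, 11.6% held one. No match was found in the windows of HSPH1 and HSPE1. The matched HSPD1 window (chr2:197499791-197500090, minus strand) lies beside that of HSPE1 (chr2:197500129-197500428, plus strand). Its first match stood 245 bases before the HSPD1 start, at the end toward the HSPE1 window. The longer run in which both motifs overlap by a shared unit was found for HSPA8, HSP90AA1 and HSPD1 and in 0.441% of all windows. Singly, GAANNTTC stood in 5.78% and TTCNNGAA in 6.62% of all windows. A match describes letters and does not show that HSF1 was bound. The stretches of 5 genes that overlap no annotated exon follow, 5′ to 3′ on the strand of the gene, with the matched letters in capitals.
HSPA1A, chr6:31815407-31815474, plus strand: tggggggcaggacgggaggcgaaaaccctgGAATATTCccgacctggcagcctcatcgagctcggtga
HSPA1B, chr6:31827603-31827670, plus strand: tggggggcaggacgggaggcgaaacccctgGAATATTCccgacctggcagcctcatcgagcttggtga
DNAJB1, chr19:14518408-14518504, minus strand: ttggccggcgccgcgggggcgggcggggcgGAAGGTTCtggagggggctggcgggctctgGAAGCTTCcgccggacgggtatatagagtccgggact
HSPB1, chr7:76302461-76302528, plus strand: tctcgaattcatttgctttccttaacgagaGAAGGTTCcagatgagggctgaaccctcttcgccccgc
HSP90AA1, chr14:102087075-102087162, minus strand: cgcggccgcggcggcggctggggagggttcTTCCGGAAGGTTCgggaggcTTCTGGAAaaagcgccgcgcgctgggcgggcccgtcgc
The first matched letter lay 106 bases before the start in HSPA1A, 105 in HSPA1B, 77 in DNAJB1, 182 in HSPB1 and 88 in HSP90AA1. The promoter windows of HSPA1A and HSPA1B matched at 277 of 299 aligned bases (92.6%). These 2 genes lie close together on chromosome 6 of GRCh38, HSPA1A at chr6:31815543-31817946 and HSPA1B at chr6:31827738-31830254, and encode nearly the same protein. Reads of one may have been assigned to the other, so their sum is given with their separate values. HSPE1 (chr2:197500140-197503449, plus strand) lies within the annotated span of HSPD1 (chr2:197486584-197516737, minus strand). Whether the authors counted reads by strand is not given in the sources used here, so reads over shared exons could not be told apart.

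Values are the authors' adjusted read counts, reads per gene scaled to a common library of 5585170 reads. The libraries held 2070301 to 9268162 reads. OlaR libraries were shallower than parental ones, with 3446613 to 4665505 against 4977284 to 7540920 reads in SUM1315 and 2070301 to 4676284 against 5574767 to 9268162 reads in MDA-MB-468 cells. The part of depth in the OlaR differences below was not tested. By the study's methods, libraries were pooled for sequencing in sets of 27, and the make-up of each pool is not given. Whether pools divided the lines, or OlaR from parental libraries, is therefore unknown. The part of pooling in those differences was not tested. The least covered gene, HSPA1B, still had at least 38 reads in every library. The untreated SUM1315 libraries stood apart from the other parental SUM1315 libraries. Their highest correlation with another condition was 0.9545 across genes, against 0.9693 to 0.9731 for the other parental conditions. All SUM1315 comparisons with untreated cells rest on these libraries. By markers, MDA-MB-468 libraries had 2631 to 3793 adjusted reads of EPCAM and 7.99 to 53.8 of VIM. SUM1315 libraries had at most 5 reads of EPCAM and 3 of CDH1, with 7929 to 13246 adjusted reads of VIM, so the epithelial markers EPCAM and CDH1 were near absent there. The epithelial keratins KRT18 and KRT8 were present in both lines, at 231 to 598 and 17.7 to 154 adjusted reads in SUM1315 and 584 to 833 and 447 to 925 in MDA-MB-468 cells. Of the receptors that define TNBC by their low levels, PGR had at most 3 reads in any library and ERBB2 5.33 to 63.3 adjusted reads, while ESR1 reached 25.6 in SUM1315 and 24.9 to 221 in MDA-MB-468 cells. The leukocyte markers PTPRC and CD3E had at most 8 reads and CD68 at most 17. COL1A1 and PECAM1, markers of fibroblasts and endothelium, reached 796 and 207 in SUM1315 and 78.9 and 16.4 in MDA-MB-468 cells. In bulk RNA, fewer cells of a type and less RNA per cell cannot be told apart.

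Differences are log2 fold changes with their standard errors (SE), fitted with limma on log2 of the adjusted count plus 1. A gene passed where its p, adjusted by Benjamini-Hochberg across the genes tested in its line, was 0.05 or less. Every ± beside a change is its SE. The labels do not say that replicates were separate cultures, so p-values measure the spread between these libraries, which may be technical. The 3 treatments set against untreated cells share the untreated libraries, and OlaR and combination comparisons share the olaparib libraries.

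The first question was how parental cells responded to each drug alone. Olaparib was followed by higher heat shock protein transcripts in both lines. In SUM1315 cells 7 of 10 genes rose and none fell, and of all genes 18.9% rose, 17.1% fell and 36.0% passed. In MDA-MB-468 cells 9 of 10 rose and none fell, where 12.4% of all genes rose, 9.11% fell and 21.5% passed. The median log2 change of the 10 genes was 0.52 in SUM1315 cells and 0.41 in MDA-MB-468 cells, against -0.00 and 0.01 over all genes. At the lower CDDP dose 4 genes rose and none fell in SUM1315 cells (19.4% of all genes rose, 14.5% fell and 33.9% passed), and 6 rose and 1 fell in MDA-MB-468 cells (10.6% rose, 9.41% fell and 20% passed). The 4 genes in SUM1315 cells were near the share of all genes that passed. The higher dose divided the lines. In SUM1315 cells 5 genes rose and 1 fell (22.2% of all genes rose, 21.7% fell and 43.9% passed), with a median of 0.44, while in MDA-MB-468 cells none rose and 1 fell (13.3% rose, 11.8% fell and 25.1% passed), with a median of -0.02.

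**Figure D1:**
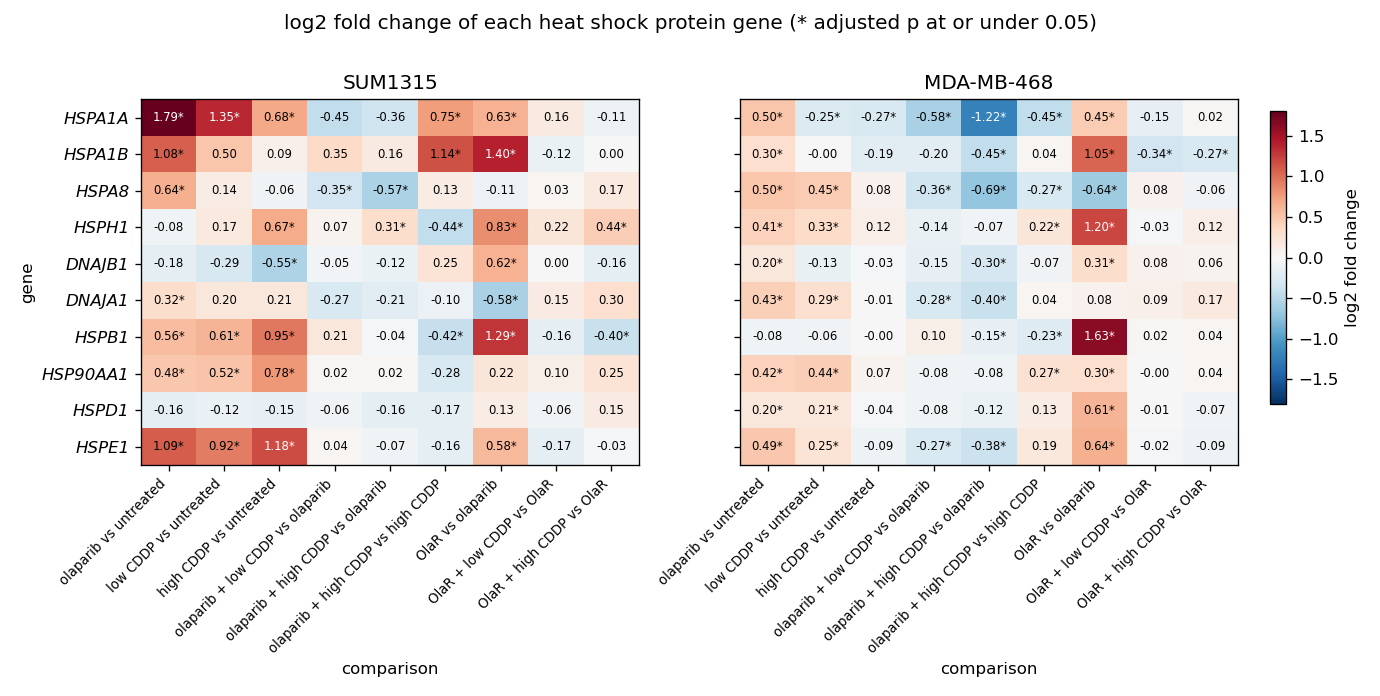
Heat map of the log2 fold change of each of the 10 heat shock protein genes (rows) in 9 comparisons (columns) for SUM1315 and MDA-MB-468 cells, with red for higher, blue for lower and an asterisk for a gene that passed. The largest rise was that of HSPA1A with olaparib in SUM1315 cells (1.79) and the largest fall that of HSPA1A in MDA-MB-468 cells on addition of 2.5 µM CDDP to olaparib (-1.22).

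HSPA1A and HSPA1B encode the stress-inducible HSP70. In SUM1315 cells, HSPA1A measured 115, 156 and 84.0 adjusted reads untreated, 519, 475 and 258 with olaparib, 328, 380 and 202 with 2 µM CDDP and 170, 208 and 178 with 4 µM CDDP. The untreated libraries were lowest, no treated library overlapped them, and the higher CDDP dose gave lower values than the lower dose in all but 1 pair of libraries. HSPA1A rose by 1.79 ± 0.22 (SE, 3.46-fold, adjusted p = 1.19e-07) with olaparib, by 1.35 ± 0.22 with 2 µM CDDP (adjusted p = 1.7e-05) and by 0.68 ± 0.22 with 4 µM CDDP (adjusted p = 0.0137). The last call rests on single libraries, since its adjusted p was 0.0621 without the second 4 µM library and 0.118 without the third untreated one. HSPA1B measured 48.5, 62.0 and 39.4 reads untreated, 93.2, 144 and 85.9 with olaparib, 67.9, 73.1 and 68.3 with 2 µM CDDP and 42.2, 74.6 and 45.7 with 4 µM CDDP. It rose with olaparib (1.08 ± 0.20, adjusted p = 5.76e-05). The change with 2 µM CDDP (0.50 ± 0.20, adjusted p = 0.0511, and 0.0164 without the second untreated library), at which all libraries lay above the untreated ones, and that with 4 µM CDDP (0.09, 95% interval -0.31 to 0.50, adjusted p = 0.741) did not pass.

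In MDA-MB-468 cells, HSPA1A started far higher, at 1719, 1985 and 1924 adjusted reads untreated. It measured 2833, 2735 and 2391 with olaparib, 1551, 1570 and 1605 with 1 µM CDDP and 1474, 1671 and 1511 with 2.5 µM CDDP. Olaparib libraries were all above and CDDP libraries all below the untreated ones. HSPA1A rose by 0.50 ± 0.06 with olaparib (adjusted p = 5.74e-09) and fell by 0.25 and 0.27 with the lower and the higher CDDP dose (adjusted p = 0.00184 and 0.000501). It was the single gene of the 10 that fell at either CDDP dose in this line, and it rose at both doses in SUM1315 cells. HSPA1B measured 321, 348 and 317 reads untreated and 401, 394 and 423 with olaparib, a rise of 0.30 ± 0.09 (adjusted p = 0.0116) that reached 0.0522 without the third untreated library. With CDDP it measured 284, 355 and 350 at 1 µM and 265, 313 and 290 at 2.5 µM, and neither difference passed (adjusted p = 0.991 and 0.134), although the 2.5 µM libraries lay below all untreated ones.

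Adding CDDP to olaparib lowered HSPA1A in MDA-MB-468 cells with dose. It measured 1771, 1716 and 1815 reads with 1 µM and 1209, 1093 and 1112 with 2.5 µM CDDP beside olaparib, with no overlap between these groups, olaparib alone or 2.5 µM CDDP alone. The fall from olaparib was 0.58 on the log2 scale at 1 µM (adjusted p = 6.36e-10) and 1.22 at 2.5 µM (2.33-fold lower, adjusted p = 2.55e-22). The combination at the higher dose was also 0.45 below 2.5 µM CDDP alone on the log2 scale (adjusted p = 2.73e-07). At 1 µM CDDP the order was the opposite, with every library of the combination above every library with CDDP alone, a difference that was not tested. The interaction, the effect of olaparib with 2.5 µM CDDP minus that without, was -0.94 ± 0.09 (adjusted p = 2.25e-12). In SUM1315 cells the same interaction was -1.04 ± 0.32 (adjusted p = 0.0166), and its adjusted p exceeded 0.05 in 4 of 12 fits that left out 1 library, reaching 0.0661. HSPA1A measured 299, 291 and 284 with olaparib and 2 µM CDDP and 402, 283 and 262 with olaparib and 4 µM CDDP in SUM1315 cells. These values overlapped those with olaparib alone, and the differences of -0.45 and -0.36 did not pass (adjusted p = 0.270 and 0.360). Without the third olaparib library, the lowest of its group, they were -0.77 (adjusted p = 0.0379) and -0.68 (adjusted p = 0.0494). Against 4 µM CDDP alone, the combination was higher by 0.75 ± 0.22 for HSPA1A (adjusted p = 0.0243, and 0.0756 to 0.161 in 3 of 6 fits without 1 library) and by 1.14 ± 0.20 for HSPA1B (adjusted p = 0.000154). HSPA1B had 151, 130 and 122 reads with olaparib and 2 µM CDDP and 130, 116 and 106 with olaparib and 4 µM CDDP in SUM1315 cells. The MDA-MB-468 values were 404, 335 and 325 reads with olaparib and 1 µM CDDP and 264, 318 and 312 with olaparib and 2.5 µM CDDP, where the fall of 0.45 from olaparib at the higher dose passed (adjusted p = 0.000137) and the difference of -0.20 at the lower did not (adjusted p = 0.224).

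The condition means of HSPA1A and HSPA1B were higher in OlaR than in parental cells of both lines. In SUM1315 cells HSPA1A measured 708, 611 and 546 reads in OlaR cells, 825, 548 and 726 with 2 µM CDDP and 491, 691 and 556 with 4 µM CDDP. The difference from olaparib-treated parental cells was 0.63 ± 0.22 (adjusted p = 0.0210), and it was 0.53 (adjusted p = 0.093) without the first OlaR library and 0.32 (adjusted p = 0.258) without the third olaparib library. HSPA1B measured 293, 278 and 265 reads in OlaR cells, 248, 301 and 226 with 2 µM CDDP and 281, 282 and 274 with 4 µM CDDP. Every OlaR library was above every parental one for HSPA1B, whose difference from olaparib-treated cells was 1.40 ± 0.20 (2.63-fold, adjusted p = 6.42e-07). In MDA-MB-468 OlaR cells HSPA1A measured 3722, 3581 and 3570 reads, with 3353, 3190 and 3248 after 1 µM and 3959, 3549 and 3556 after 2.5 µM CDDP. HSPA1B measured 902, 811 and 813 reads there, with 690, 651 and 658 after 1 µM and 676, 739 and 683 after 2.5 µM CDDP. All OlaR libraries exceeded all parental MDA-MB-468 libraries for both genes. HSPA1A rose by 0.45 ± 0.06 (adjusted p = 1e-08) and HSPA1B by 1.05 ± 0.09 (2.07-fold, adjusted p = 3.24e-14) against olaparib-treated cells.

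**Figure D2:**
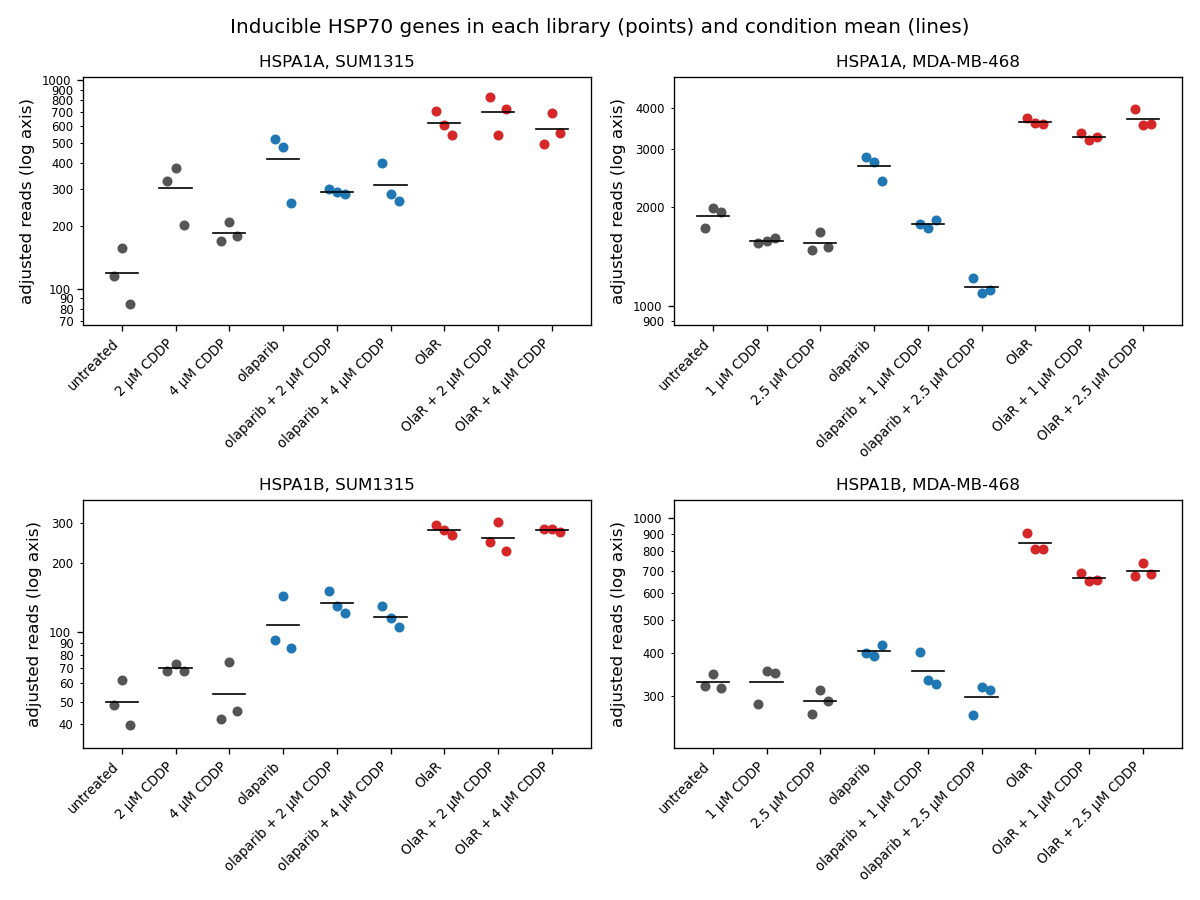
Adjusted reads of HSPA1A and HSPA1B (log axes) in each library (points) of the 9 conditions of SUM1315 and MDA-MB-468 cells, with lines at the condition means (gray, untreated or CDDP, blue, with olaparib, red, OlaR). OlaR libraries of MDA-MB-468 cells are above all parental ones for both genes, and HSPA1A is lowest in that line with olaparib and 2.5 µM CDDP (mean 1138).

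Because reads of these genes may be interchanged, their sum was also taken. It measured 163, 218 and 123 untreated, 612, 620 and 344 with olaparib and 1002, 889 and 811 in OlaR SUM1315 cells. In MDA-MB-468 cells the sum was 2040, 2334 and 2241 untreated, 3233, 3129 and 2814 with olaparib, 1472, 1412 and 1424 with olaparib and 2.5 µM CDDP and 4623, 4392 and 4382 in OlaR cells. These MDA-MB-468 groups did not overlap. HSPA1B supplied a mean of 19.5% ± 4.91 (SD, n = 3, 2 µM CDDP) to 32.8% ± 3.77 (OlaR with 4 µM CDDP) of the summed reads across the SUM1315 conditions, with 29.7%, 28.4% and 31.9% untreated and a mean of 21.1% ± 5.17 with olaparib, and 13.3% ± 1.46 (SD, n = 3, olaparib) to 20.8% ± 2.44 (olaparib and 2.5 µM CDDP) across those of MDA-MB-468 cells. Fitted as a single gene, the sum, most of which is HSPA1A, changed no call of HSPA1A but 1. This was in OlaR MDA-MB-468 cells with 1 µM CDDP, where the sum fell by 0.18 (adjusted p = 0.0449). With 2.5 µM CDDP in these cells, where HSPA1B alone fell, the sum measured 4635, 4289 and 4239 and did not pass.

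HSPA8 encodes HSC70, the constitutive member of the family. In SUM1315 cells it measured 1592, 1742 and 1417 reads untreated and 2317, 2360 and 2722 with olaparib, without overlap, a rise of 0.64 ± 0.10 (adjusted p = 5.66e-06). In MDA-MB-468 cells it measured 1644, 1622 and 1645 untreated, 2241, 2385 and 2329 with olaparib and 2477, 2131 and 2135 with 1 µM CDDP, and rose by 0.50 ± 0.07 (adjusted p = 6.26e-08) and 0.45 ± 0.07 (adjusted p = 7.09e-07). All treated libraries in these sets lay above the untreated ones. At the higher CDDP dose alone, HSPA8 measured 1611, 1437 and 1494 in SUM1315 and 1874, 1732 and 1602 in MDA-MB-468 cells, close to untreated values, and neither difference passed (95% intervals -0.27 to 0.14 and -0.05 to 0.22).

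HSPA8 was the gene lowered by the higher CDDP dose beside olaparib in both lines. It measured 1579, 1701 and 1681 reads in SUM1315 and 1580, 1408 and 1321 in MDA-MB-468 cells, below all libraries with olaparib alone. The falls were 0.57 (adjusted p = 0.000262) and 0.69 (adjusted p = 6.01e-12) on the log2 scale. At the lower dose it measured 1985, 1847 and 1946 and fell by 0.35 (adjusted p = 0.0423) in SUM1315 cells, a call lost whenever 1 of the 6 libraries was left out (adjusted p = 0.0764 to 0.158). The MDA-MB-468 values of 1599, 1904 and 1928 were a fall of 0.36 (adjusted p = 0.000218). OlaR cells differed by line. MDA-MB-468 OlaR cells had 1539, 1502 and 1411 reads of HSPA8, a fall of 0.64 from olaparib-treated cells (adjusted p = 9.93e-12) that left them near untreated values, while SUM1315 OlaR cells had 2266, 2194 and 2379 and did not differ detectably (-0.11, 95% interval -0.32 to 0.09). No fall of HSPA8 with CDDP was detected in OlaR cells, where the difference at the higher dose was 0.17 (adjusted p = 0.274) in SUM1315 cells and -0.06 (adjusted p = 0.566) in MDA-MB-468 cells. The interaction of OlaR with the higher CDDP dose was 0.74 ± 0.14 (adjusted p = 0.00113) and 0.63 ± 0.09 (adjusted p = 2.09e-06).

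HSPH1, also called HSP105 or HSP110, is a nucleotide exchange factor for HSP70. It measured 1118, 1076 and 1357 reads in untreated SUM1315 cells, 1051, 1169 and 1128 with olaparib and 2011, 1843 and 1782 with 4 µM CDDP. Only the CDDP libraries stood above the untreated ones, with a rise of 0.67 ± 0.10 (adjusted p = 9.93e-07), and the change with olaparib was -0.08 (95% interval -0.28 to 0.12). With olaparib and 4 µM CDDP it measured 1249, 1459 and 1455, which was 0.44 below CDDP alone on the log2 scale (adjusted p = 0.0021) and 0.31 above olaparib alone (adjusted p = 0.0404), the latter call being lost in 5 of 6 fits without 1 library. In MDA-MB-468 cells HSPH1 measured 3095, 2917 and 2891 untreated, 3846, 3814 and 4157 with olaparib, 3729, 3688 and 3801 with 1 µM CDDP and 3259, 3271 and 3145 with 2.5 µM CDDP. Olaparib and the lower CDDP dose raised it by 0.41 ± 0.05 (adjusted p = 3.8e-09) and 0.33 ± 0.05 (adjusted p = 5.7e-07), while the difference at the higher dose did not pass (0.12, adjusted p = 0.0636). All 3 libraries at that dose lay above all untreated ones, and the adjusted p was 0.0439 with only the groups compared and 0.0402 without the first untreated library.

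OlaR cells of both lines had more HSPH1. MDA-MB-468 OlaR cells measured 8961, 9072 and 9113 reads, 9167, 9032 and 8484 with 1 µM CDDP and 9736, 10079 and 9734 with 2.5 µM CDDP. The lowest of these was above the highest parental value of 4157. The rise over olaparib-treated cells was 1.20 ± 0.05 (2.30-fold, adjusted p = 6.79e-27). SUM1315 OlaR cells measured 2140, 1971 and 1839 reads, a rise of 0.83 ± 0.10 (1.78-fold, adjusted p = 1.83e-08) that overlapped parental cells given 4 µM CDDP. CDDP at 4 µM raised HSPH1 further in SUM1315 OlaR cells, to 2808, 2610 and 2634 reads (0.44 ± 0.10, adjusted p = 0.00186).

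**Figure D3:**
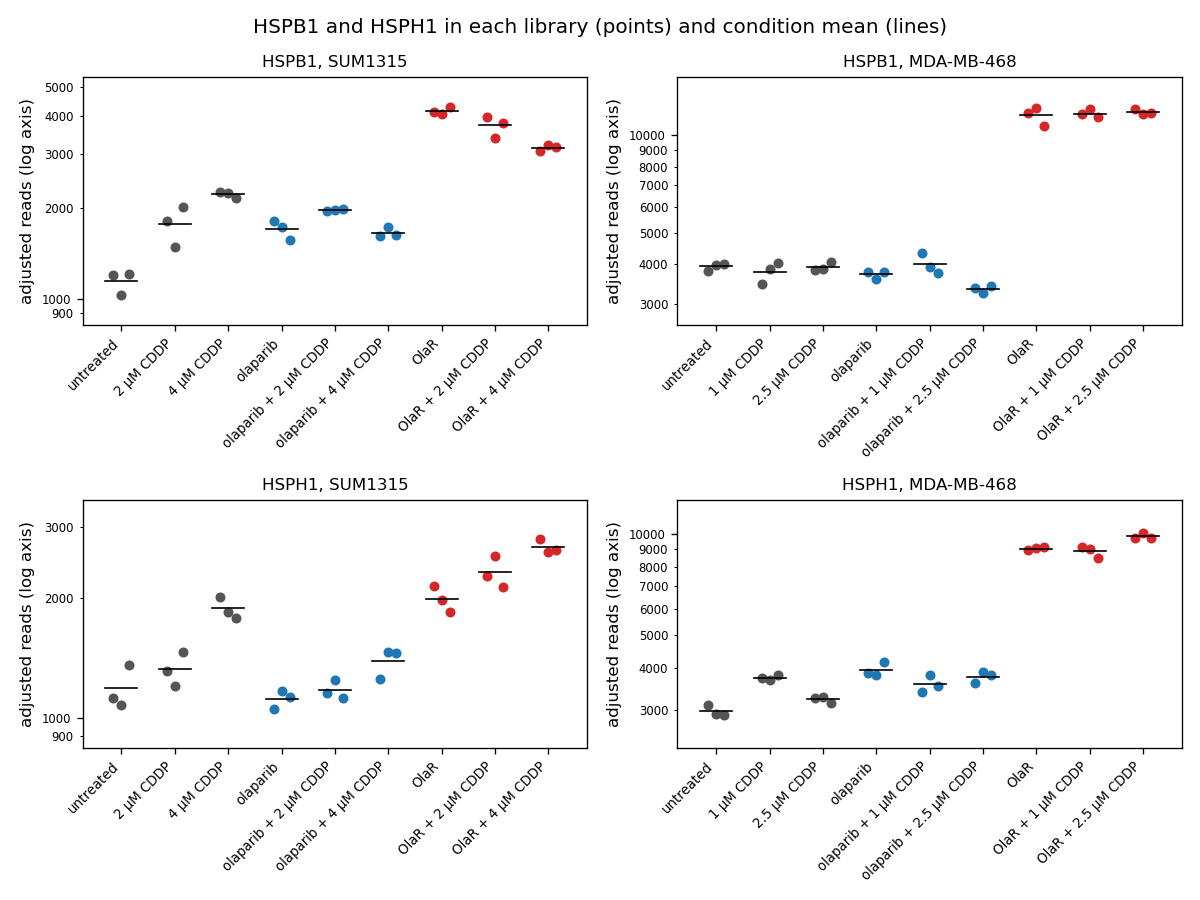
Adjusted reads of HSPB1 and HSPH1 (log axes) in each library (points) of the 9 conditions of SUM1315 and MDA-MB-468 cells, with lines at the condition means (gray, untreated or CDDP, blue, with olaparib, red, OlaR). In MDA-MB-468 cells the OlaR libraries of HSPB1 lie between 10720 and 12113 and the parental ones between 3240 and 4337.

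DNAJB1 and DNAJA1 encode HSP40 co-chaperones, the J-domain proteins that hand clients to HSP70, and DNAJB1 is a stress-inducible one. DNAJB1 measured 519, 499 and 801 reads in untreated SUM1315 cells, with the third library well above the others, 524 ± 53.8 (SD, n = 3) with olaparib and 415, 425 and 375 with 4 µM CDDP. It fell by 0.55 on the log2 scale with 4 µM CDDP (adjusted p = 0.00121) and did not pass with olaparib (-0.18, adjusted p = 0.310). Untreated MDA-MB-468 cells had 1161, 1284 and 1270 reads and olaparib-treated cells 1378, 1475 and 1415. This was a rise of 0.20 ± 0.06 (adjusted p = 0.00707), which had an adjusted p of 0.0824 without the first untreated library. With olaparib and 2.5 µM CDDP, DNAJB1 measured 1110, 1145 and 1216 and fell by 0.30 from olaparib alone (adjusted p = 5.41e-05). OlaR cells measured 776, 830 and 800 in SUM1315 and 1765, 1732 and 1790 in MDA-MB-468, above all olaparib libraries. The third untreated SUM1315 library (801) lay within the OlaR values of its line. The rises over olaparib-treated cells were 0.62 ± 0.13 (adjusted p = 0.000301) and 0.31 ± 0.06 (adjusted p = 8.39e-06).

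DNAJA1 moved otherwise. It measured 1149, 1260 and 941 reads in untreated, 1453, 1322 and 1386 in olaparib-treated and 969, 905 and 917 in OlaR SUM1315 cells. The OlaR libraries were the lowest of these apart from an overlap with 1 untreated library, and DNAJA1 was the gene that fell in SUM1315 OlaR cells, by 0.58 on the log2 scale from olaparib-treated cells (adjusted p = 7.45e-05). Its rise with olaparib (0.32 ± 0.11, adjusted p = 0.0234) was lost without the first olaparib library (adjusted p = 0.0835) or the third untreated one (adjusted p = 0.187). In MDA-MB-468 cells DNAJA1 measured 719, 705 and 716 untreated, 964, 929 and 1003 with olaparib, 807, 730 and 662 with olaparib and 2.5 µM CDDP and 1122, 986 and 957 in OlaR cells. It rose with olaparib by 0.43 ± 0.07 (adjusted p = 1.21e-05) and fell by 0.40 when the higher CDDP dose was added (adjusted p = 3.76e-05). OlaR and olaparib-treated cells did not differ detectably (0.08, 95% interval -0.07 to 0.23).

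HSPB1, or HSP27, is a small heat shock protein that holds unfolded clients without ATP and binds the actin cytoskeleton. SUM1315 cells had 1207, 1033 and 1213 reads untreated, 1805, 1733 and 1566 with olaparib, 1806, 1490 and 2009 with 2 µM CDDP and 2260, 2241 and 2157 with 4 µM CDDP. Every treated library exceeded every untreated one and the 4 µM libraries were highest. HSPB1 rose by 0.56 ± 0.09 (adjusted p = 8.01e-06), 0.61 ± 0.09 (adjusted p = 2.58e-06) and 0.95 ± 0.09 (adjusted p = 2.83e-10). The combination of olaparib and 4 µM CDDP gave 1616, 1726 and 1628 reads, no more than olaparib alone (-0.04, 95% interval -0.22 to 0.15) and 0.42 less than CDDP alone on the log2 scale (adjusted p = 0.00156), and the interaction was -0.99 ± 0.13 (adjusted p = 8.63e-07). In parental MDA-MB-468 cells HSPB1 moved little. It measured 3795, 3977 and 4010 untreated, 3771, 3601 and 3771 with olaparib and 3832, 3867 and 4047 with 2.5 µM CDDP, and no difference with a single drug passed (-0.08, -0.06 and -0.00 with olaparib and the lower and higher CDDP dose), although the olaparib libraries lay below all untreated ones. With olaparib and 2.5 µM CDDP it measured 3377, 3240 and 3421, 0.15 below olaparib (adjusted p = 0.0311), a call lost in 3 of 6 fits without 1 library (up to 0.139).

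HSPB1 had the largest OlaR difference of the 10 genes in MDA-MB-468 cells. It measured 11754, 12113 and 10720 reads in OlaR cells, 11616, 12079 and 11365 with 1 µM and 12027, 11683 and 11747 with 2.5 µM CDDP. All lay far above the highest parental value of 4337. The rise over olaparib-treated cells was 1.63 ± 0.05 (3.10-fold, adjusted p = 4.13e-31). In SUM1315 OlaR cells it measured 4132, 4078 and 4294, against a highest parental value of 2260, and rose by 1.29 ± 0.09 (2.45-fold, adjusted p = 1.65e-13). CDDP lowered it in SUM1315 OlaR cells, where it measured 3987, 3396 and 3796 with 2 µM and 3076, 3210 and 3166 with 4 µM CDDP. The fall was 0.40 on the log2 scale at the higher dose (adjusted p = 0.0021), and -0.16 at the lower dose did not pass (adjusted p = 0.435). The lines differed in this step, with a SUM1315 minus MDA-MB-468 difference of -0.44 ± 0.10 (adjusted p = 0.00759).

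HSP90AA1 encodes the inducible cytosolic HSP90. In SUM1315 cells it measured 9674, 8507 and 10032 reads untreated, 11407, 11919 and 16639 with olaparib and 16574, 15873 and 15997 with 4 µM CDDP. The untreated libraries were lowest. It rose by 0.48 ± 0.13 with olaparib (adjusted p = 0.00346), although without the third olaparib library, which stood above the others, the change was 0.31 (adjusted p = 0.0588). With 2 µM CDDP it measured 12886, 12806 and 14845 and rose by 0.52 ± 0.13 (adjusted p = 0.00189), and with 4 µM CDDP it rose by 0.78 ± 0.13 (adjusted p = 8.3e-06). MDA-MB-468 cells had 14805, 13857 and 14155 reads untreated, 18635, 18556 and 20062 with olaparib, 20033, 17845 and 20200 with 1 µM CDDP and 15158, 14803 and 14880 with 2.5 µM CDDP. Olaparib and the lower CDDP dose raised HSP90AA1 by 0.42 ± 0.05 (adjusted p = 1e-09) and 0.44 ± 0.05 (adjusted p = 3.39e-10), and the difference at the higher dose did not pass (0.07, adjusted p = 0.331). Unlike HSPA1A and HSPA8, HSP90AA1 did not fall detectably on addition of 2.5 µM CDDP to olaparib in MDA-MB-468 cells (17526, 17690 and 18781 reads, -0.08, 95% interval -0.18 to 0.01). MDA-MB-468 OlaR cells had 22653, 23515 and 24311 reads, above all parental libraries (0.30 ± 0.05, adjusted p = 4.64e-07). SUM1315 OlaR cells had 15328, 15470 and 15009 and did not pass (0.22, adjusted p = 0.169). That difference was 0.39 (adjusted p = 0.014) without the third olaparib library.

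HSPD1 (HSP60) and HSPE1 (HSP10) form the chaperonin of the mitochondrial matrix, with HSPE1 as its lid. In SUM1315 cells HSPE1 measured 524, 538 and 455 reads untreated, 1076, 1064 and 1092 with olaparib, 903, 901 and 1070 with 2 µM CDDP and 1192, 1135 and 1112 with 4 µM CDDP. HSPD1 measured 2946, 2776 and 3532 untreated, 2779, 2847 and 2640 with olaparib, 2742, 2772 and 2958 with 2 µM CDDP and 2848, 2632 and 2820 with 4 µM CDDP. The groups of HSPE1 were fully separated from untreated cells and those of HSPD1 overlapped them. HSPE1 rose by 1.09 ± 0.09 (2.13-fold, adjusted p = 2.66e-11), 0.92 ± 0.09 (adjusted p = 1.44e-09) and 1.18 ± 0.09 (2.27-fold, adjusted p = 2.55e-12), while HSPD1 did not pass (-0.16 with 95% interval -0.33 to 0.02, -0.12 and -0.15). The effects of olaparib and 4 µM CDDP on HSPE1 did not add up, since both together gave 1040, 1079 and 969 reads (interaction -1.25 ± 0.13, adjusted p = 1.55e-08). This interaction rests on the untreated libraries, which stood apart from the other parental ones. The ratio of HSPE1 to HSPD1 adjusted reads was 0.178, 0.194 and 0.129 untreated, 0.387, 0.374 and 0.414 with olaparib and 0.556, 0.517 and 0.533 in OlaR SUM1315 cells. The ratio compares conditions and not the amounts of the 2 transcripts.

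**Figure D4:**
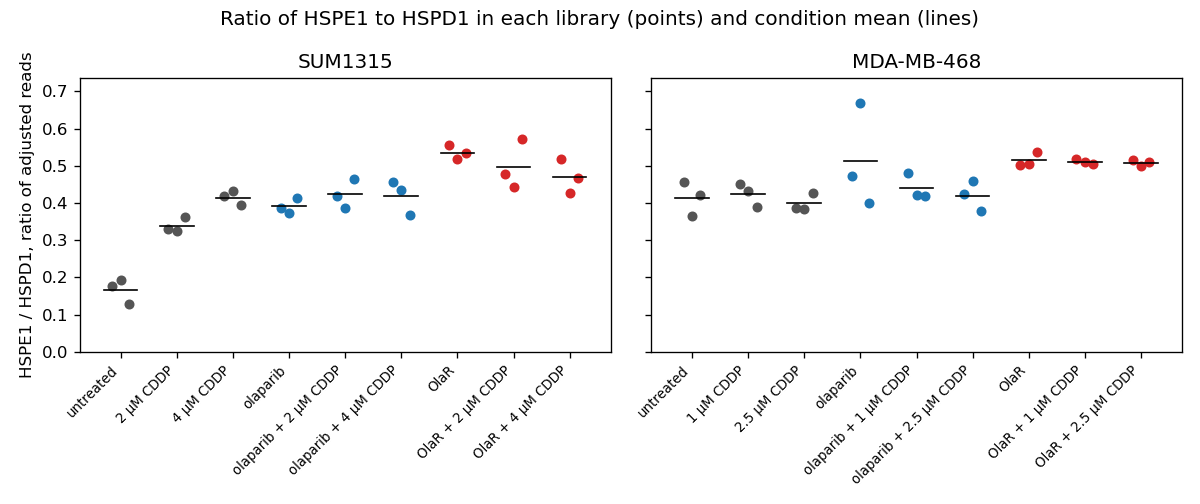
Ratio of HSPE1 to HSPD1 adjusted reads in each library (points) of the 9 conditions of SUM1315 and MDA-MB-468 cells, with lines at the condition means (gray, untreated or CDDP, blue, with olaparib, red, OlaR). Untreated SUM1315 libraries (mean 0.167) lie below all other SUM1315 libraries, and 1 olaparib library of MDA-MB-468 cells stands at 0.668.

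In MDA-MB-468 cells HSPE1 measured 835, 668 and 770 reads untreated and 1034, 1207 and 946 with olaparib, and HSPD1 1837, 1834 and 1828 untreated and 2188, 1807 and 2359 with olaparib. The second olaparib library was highest for HSPE1 and lowest for HSPD1. HSPE1 rose by 0.49 ± 0.07 (adjusted p = 1.24e-06). HSPD1 rose by 0.20 ± 0.06 (adjusted p = 0.0105), with an adjusted p of 0.0646 without the first and 0.178 without the third olaparib library. With olaparib and 2.5 µM CDDP, HSPE1 measured 810, 868 and 760 and fell by 0.38 from olaparib alone (adjusted p = 7.65e-05). In MDA-MB-468 OlaR cells HSPE1 measured 1604, 1646 and 1709 and HSPD1 3194, 3258 and 3187, both above all parental libraries. Both rose to a similar extent over olaparib-treated cells, by 0.64 ± 0.07 (adjusted p = 1.91e-10) and 0.61 ± 0.06 (adjusted p = 1.16e-12). In SUM1315 OlaR cells HSPE1 measured 1612, 1617 and 1618 and rose by 0.58 ± 0.09 (adjusted p = 3.09e-06), while HSPD1 measured 2899, 3127 and 3035 and did not pass (0.13, 95% interval -0.05 to 0.31).

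The comparisons of combined treatment with olaparib alone can now be counted. When the lower CDDP dose was added, 1 gene, HSPA8, fell in SUM1315 cells (1.67% of all genes fell, 2.09% rose and 3.76% passed). In MDA-MB-468 cells HSPA1A, HSPA8, DNAJA1 and HSPE1 fell (2.97% fell, 2.30% rose and 5.26% passed). The DNAJA1 and HSPE1 calls were each lost in 2 of 6 fits without 1 library, with adjusted p-values up to 0.124 and 0.251. At the higher dose HSPH1 rose and HSPA8 fell in SUM1315 cells (4.35% rose, 4.09% fell and 8.44% passed), whereas 7 genes fell and none rose in MDA-MB-468 cells (13.1% fell, 10.1% rose and 23.1% passed). The median of the 10 genes was -0.09 in SUM1315 cells and -0.34 in MDA-MB-468 cells, against -0.01 and -0.00 over all genes. HSPH1, HSP90AA1 and HSPD1 were the 3 that did not pass in MDA-MB-468 cells. Set against the higher CDDP dose alone, the combination raised HSPA1A and HSPA1B and lowered HSPH1 and HSPB1 in SUM1315 cells (6.32% rose, 6.52% fell and 12.8% passed). In MDA-MB-468 cells it raised HSPH1 and HSP90AA1 and lowered HSPA1A, HSPA8 and HSPB1 (4.63% rose, 7.29% fell and 11.9% passed), where the HSPA8 call was lost in 2 of 6 fits without 1 library (adjusted p = 0.0518 and 0.0584). The interaction of olaparib with the higher CDDP dose passed for 5 genes in SUM1315 cells (21.5% of all genes), all of them negative (11.6% negative and 9.92% positive), and for 6 in MDA-MB-468 cells (20.2%), also all negative (12% negative and 8.14% positive). In MDA-MB-468 cells the HSPE1 and HSPH1 calls were lost in 5 and 7 of 12 fits without 1 library (up to 0.204 and 0.137) and with only the groups compared (0.0629 and 0.0654), and that of DNAJB1 without the first untreated library (0.0558).

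OlaR cells were compared with olaparib-treated parental cells to ask what the resistant state had in common across lines. In SUM1315 cells 6 genes rose and DNAJA1 fell (21.6% of all genes rose, 25.7% fell and 47.2% passed), with a median of 0.60 against -0.05 over all genes. In MDA-MB-468 cells 8 rose and HSPA8 fell (23.6% rose, 27.9% fell and 51.5% passed), with a median of 0.53 against -0.03. HSPA1A, HSPA1B, HSPH1, DNAJB1, HSPB1 and HSPE1 rose in each line. A fold change of at least 2 was also reached by HSPA1B and HSPB1 in SUM1315 (16.6% of all genes) and by HSPA1B, HSPH1 and HSPB1 in MDA-MB-468 cells (14.3%). The SUM1315 count was near the share of all genes. Across all conditions, every one of the 9 OlaR libraries was above every one of the 18 parental libraries for 3 genes in SUM1315 cells, HSPA1B, HSPB1 and HSPE1 (5.87% of all genes), and for 8 in MDA-MB-468 cells, all but HSPA8 and DNAJA1 (9.53%). No gene of the 10 had all OlaR libraries below the parental ones (6.80% and 10.9%). The 10 genes together took 0.318%, 0.297% and 0.323% of all reads in untreated, 0.393%, 0.398% and 0.486% in olaparib-treated and 0.513%, 0.520% and 0.509% in OlaR SUM1315 libraries. Parental SUM1315 libraries with 4 µM CDDP took 0.513%, 0.490% and 0.494%, so the parental values reached those of OlaR cells. In MDA-MB-468 libraries the 10 genes took 0.568%, 0.547% and 0.560% untreated, 0.681%, 0.673% and 0.703% with olaparib and 1.02%, 1.03% and 1.03% in OlaR cells.

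**Figure D5:**
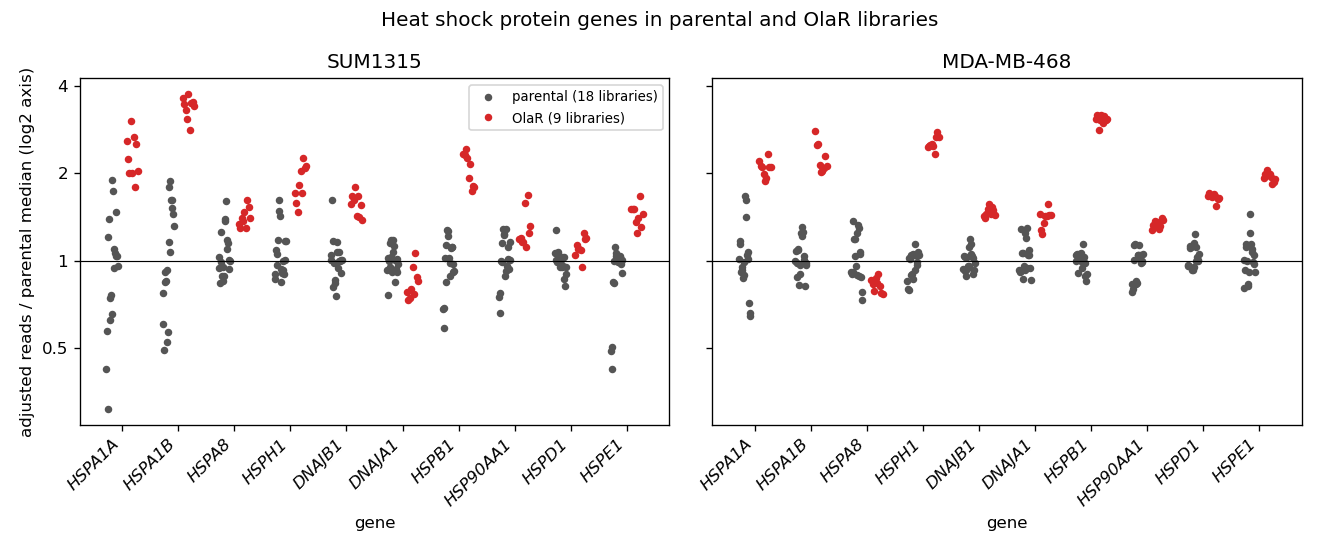
Adjusted reads of the 10 heat shock protein genes, each divided by the parental median of the gene (log2 axis), in the 18 parental (gray) and 9 OlaR (red) libraries of SUM1315 and MDA-MB-468 cells. The OlaR libraries lie above all parental ones for 3 genes in SUM1315 and for 8 genes in MDA-MB-468 cells.

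Changes of at least 2-fold that passed were few elsewhere. In SUM1315 cells they were those of HSPA1A, HSPA1B and HSPE1 with olaparib (9.35% of all genes), HSPA1A with 2 µM CDDP (8.79%), HSPE1 with 4 µM CDDP (15.4%) and HSPA1B in the combination against 4 µM CDDP (2.56%). The counts with CDDP alone were near the shares of all genes. The only one in MDA-MB-468 cells was the fall of HSPA1A from olaparib to olaparib with 2.5 µM CDDP (1.91%). No gene of the 10 reached it on addition of 2 or 4 µM CDDP to olaparib (0.495% and 1.32%) or to OlaR cells (0.533% and 3.82%) in SUM1315 cells. None did so in MDA-MB-468 cells with olaparib (1.74%), with either CDDP dose (1.83% and 2.59%), on addition of 1 µM CDDP to olaparib (0.177%), in the combination against 2.5 µM CDDP (0.438%) or with CDDP in OlaR cells (0.392% and 2.39%).

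CDDP added to OlaR cells changed few of these genes, near the shares of all genes that passed. At the lower dose none of the 10 passed in SUM1315 cells by limma (1.42% of all genes passed, 0.548% rose and 0.876% fell). At an unadjusted p under 0.05 there was 1, HSPH1 (2270, 2542 and 2127 reads with CDDP, 0.22, adjusted p = 0.288), and none passed by edgeR or by DESeq2. In MDA-MB-468 OlaR cells HSPA1B fell by 0.34 at the lower dose (adjusted p = 0.0217, 4.76% of all genes passed, 1.84% rose and 2.91% fell) and by 0.27 at the higher (adjusted p = 0.0315, 18.7% passed, 7.43% rose and 11.2% fell). Each of these calls was lost in 3 of 6 fits without 1 library, with adjusted p-values up to 0.129 and 0.156. At the higher dose HSPH1 rose and HSPB1 fell in SUM1315 OlaR cells (7.13% rose, 9.61% fell and 16.7% passed). HSPA1A did not differ detectably there (-0.11, 95% interval -0.56 to 0.35) or in MDA-MB-468 OlaR cells (0.02, 95% interval -0.10 to 0.15). The effect of the higher CDDP dose in OlaR cells minus that beside olaparib in parental cells passed for 5 genes in MDA-MB-468 cells (15.0% of all genes), all of them positive (7.58% positive and 7.47% negative). The largest was HSPA1A at 1.24 ± 0.09 (adjusted p = 1.92e-15), followed by HSPA8, DNAJA1 at 0.57 ± 0.11 (adjusted p = 8.48e-05), DNAJB1 at 0.36 ± 0.08 (adjusted p = 0.00109) and HSPE1 at 0.29 ± 0.10 (adjusted p = 0.0495, lost in 10 of 12 fits without 1 library). In SUM1315 cells 2 genes passed (6.40%), both positive (1.99% positive and 4.41% negative). They were HSPA8 and DNAJA1 (0.51 ± 0.16, adjusted p = 0.0446, lost in 11 of 12 such fits). In each line, this interaction and that of olaparib with the higher CDDP dose are not independent. Both hold the step from olaparib to olaparib with CDDP, with opposite signs.

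Changes were then set side by side between lines, at the doses of each line, among 14460 genes. The response to olaparib differed for 6 genes (19.9% of all genes, 9.99% higher and 9.89% lower). The SUM1315 change exceeded that of MDA-MB-468 cells for HSPA1A (1.29 ± 0.26), HSPB1 (0.65 ± 0.10), HSPE1 (0.61 ± 0.12) and HSPA1B (0.78 ± 0.22), and was below it for HSPH1 (-0.49 ± 0.11) and HSPD1 (-0.35 ± 0.10). With only the groups compared, the HSPA1B and HSPD1 differences did not pass (adjusted p = 0.0705 and 0.127). That of HSPA1B was 0.55 (adjusted p = 0.0612) without the second SUM1315 olaparib library, and that of HSPD1 was -0.25 (adjusted p = 0.0783) without the third untreated SUM1315 library and -0.27 (adjusted p = 0.0685) without the third MDA-MB-468 olaparib library. The response to the higher CDDP dose differed for 6 genes (27.5%, 13.7% higher and 13.9% lower), most for HSPE1 (1.27 ± 0.12, adjusted p = 1.14e-11), HSPA1A (0.96 ± 0.26, adjusted p = 0.00431) and HSPB1 (0.95 ± 0.10, adjusted p = 7.45e-10). The OlaR difference was smaller in SUM1315 than in MDA-MB-468 cells for DNAJA1 (-0.65 ± 0.14), HSPD1 (-0.48 ± 0.10), HSPH1 (-0.37 ± 0.11) and HSPB1 (-0.34 ± 0.10) and higher for HSPA8 (0.53 ± 0.13). These 5 genes were near the share of all genes (41.7%, 20.3% higher and 21.4% lower). For HSPA1B the OlaR difference was not detectably unlike between lines (0.35, 95% interval -0.09 to 0.78). CDDP at the higher dose in OlaR cells differed for HSPB1 alone (5.44%, 2.56% higher and 2.88% lower).

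The wider chaperone network was described from lists of related genes. Of 18 further genes driven by HSF1, 16 were tested. With olaparib 6 rose and 1 fell in SUM1315 and 9 rose and 1 fell in MDA-MB-468 cells, with medians of 0.09 and 0.29, where 36.0% and 21.5% of all genes passed, so that 7 of 16 in SUM1315 cells was near the share of all genes. UBB, a polyubiquitin gene, rose in each line, from a mean of 1646 to 2812 reads (0.77 ± 0.10, adjusted p = 2.06e-07) and from 2395 to 3413 (0.51 ± 0.05, adjusted p = 1.76e-10). When 2.5 µM CDDP was added in MDA-MB-468 cells, UBB fell to 2310 (-0.56, adjusted p = 5.93e-12) and HSP90AB1, the constitutive HSP90, fell from 10700 to 8351 (-0.36, adjusted p = 5.89e-08). In OlaR cells the list was mixed, with 5 up and 2 down in SUM1315 and 7 up and 4 down in MDA-MB-468 cells, where 47.2% and 51.5% of all genes passed. The SUM1315 count is thus near the share of all genes. FKBP4, an HSP90 co-chaperone, rose in each (0.67 ± 0.09 and 0.73 ± 0.06), whereas SERPINH1, the collagen chaperone, fell from 2462 to 1041 in SUM1315 cells (-1.23, adjusted p = 1.39e-10) and CRYAB, a small heat shock protein, fell from 68.3 to 0.808 in MDA-MB-468 cells (adjusted p = 1.24e-16). HSF1 itself fell from 144 to 89.6 reads in MDA-MB-468 OlaR cells (-0.68, adjusted p = 0.0011) and HSBP1, which binds HSF1 and is not itself a heat shock factor, rose (0.15, adjusted p = 0.0111). In SUM1315 OlaR cells HSBP1 alone passed of the 4 genes listed with the heat shock factors (-0.26, adjusted p = 0.00976).

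Of the 18 co-chaperones of HSP70 and HSP90, 16 were tested. In OlaR cells 5 rose and 2 fell in SUM1315 cells, near the 47.2% of all genes that passed, and 8 rose and 4 fell in MDA-MB-468 cells (51.5% of all genes passed). HSPBP1, which like HSPH1 exchanges nucleotide on HSP70, rose from 241 to 491 in SUM1315 cells (1.04 ± 0.14, adjusted p = 3.71e-07), and ST13, which stabilizes HSP70 with its client, rose from 771 to 1432 in MDA-MB-468 cells (0.89 ± 0.07, adjusted p = 3.48e-16). The TRiC/CCT chaperonin, which folds actin and tubulin, has 8 subunits. With olaparib 3 rose and 1 fell in SUM1315 and 7 rose in MDA-MB-468 cells (36.0% and 21.5% of all genes passed). With 2.5 µM CDDP added in MDA-MB-468 cells 6 of the 8 fell (13.1% of all genes fell), CCT4 by 0.39 (adjusted p = 1.49e-07). With 4 µM CDDP alone in SUM1315 cells 6 rose and 1 fell (43.9% of all genes passed), CCT3 rising by 0.87 ± 0.07 (adjusted p = 1.56e-11) and CCT6A changing by -0.46 ± 0.08 (adjusted p = 1.64e-05). In OlaR cells 3 rose and 1 fell in SUM1315 and 5 rose in MDA-MB-468 cells, near the 47.2% and 51.5% of all genes that passed. CCT5 and CCT7 rose in both lines (0.50 and 0.87 for SUM1315, 0.73 and 0.27 for MDA-MB-468). Of 13 chaperones of the endoplasmic reticulum, olaparib raised 5 and lowered 5 in SUM1315 and raised 2 and lowered 2 in MDA-MB-468 cells, where 36.0% and 21.5% of all genes passed. HSPA5, the HSP70 of that compartment, fell with 4 µM CDDP in SUM1315 cells from 4511 to 2695 (-0.74, adjusted p = 9.91e-09). Of 9 mitochondrial chaperones and proteases tested, none rose and 4 fell with olaparib in SUM1315 cells (17.1% of all genes fell). In MDA-MB-468 cells 1 rose and 2 fell with olaparib (21.5% of all genes passed). HSPA9, the mitochondrial HSP70, fell from 1683 to 1065 with olaparib in SUM1315 cells (-0.65, adjusted p = 6.5e-07), in the comparison in which HSPE1 rose.

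The genes whose pattern was most like that of HSPA1B and HSPD1 were named by Pearson correlation of log2 values over the 27 libraries of each line, among 9010 genes. For HSPA1B they were ZNHIT1, CALR, BPGM, HSPA1A and SEM1 (0.89 to 0.95 over both lines). For HSPD1 they were BCCIP, NEIL2, AATF, PTCD3 and RAI14 (0.77 to 0.95). All share the same libraries, and the division into parental and OlaR libraries enters each correlation.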

How the data were processed

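By the labels and the study's methods, 3′ mRNA libraries (QuantSeq, FWD kit) were sequenced as 50 bp reads. The submitters' processing notes name CASAVA 1.8.2, FastQC, STAR, HTSeq, edgeR and hg38. The deposited signal is, for each gene, a read number that edgeR in the hands of the authors had scaled within each condition to a library size of 5585170 at a dispersion of 0.01039, so it is not whole. The adjustment shrinks differences in depth but not those in sampling error. Inverting it gave whole reads from which all 1483380 values were given back (largest relative difference 5.5e-10, tolerance 1e-06). These reads gave the depths and the count tests, which served as alternatives. The authors' other deposited tables hold log2 fold changes, p-values and FDR against untreated cells and were not used.

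Adjusted values were analysed as log2(value + 1) with limma 3.58.1 with a mean-dependent prior in R 4.3.3. The model of a line held 27 libraries in 9 conditions and the genes that reached 10 in 3 or more libraries. P-values were adjusted by Benjamini-Hochberg over all genes tested. Differences between lines were fitted over all 54 libraries. The fit was tested on simulated reads for the comparison of OlaR with olaparib-treated SUM1315 cells only. All genes there had the same dispersion, and far fewer genes changed than were called in the data. False calls made up more of all calls than the threshold of 0.05 allows, so adjusted p-values near it carry less weight than stated. The size of this excess in the other comparisons was not tested. A fold on this scale understates changes of low genes. Groups follow the library titles. No library was left out of the main fits. Replicates differed by more than sampling noise, since chi-square divided by its degrees of freedom was 1.599 or more in every pair.

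The genes described, the chaperone lists and the tests were chosen with earlier results of these data known. All 10 heat shock protein genes are named. Of other chaperone genes, up to 3 per list and comparison with the smallest adjusted p are named. Likeness was ranked by the lower correlation of the 2 lines among genes with a mean log2 value of at least 5. The likeness result for DNAJB1 is not reported here. Promoter windows are from RefSeq (GRCh38.p14) and gene spans from the GRCh38 annotation. Alternatives were pseudocounts of 0.5 and 5, no filter, a fold change of at least 2, HSPA1A and HSPA1B summed, a replicate block, a fit of only the groups compared, edgeR 4.0.16 with TMM or DESeq2 size factors, DESeq2 1.42.0, and leaving out each library.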

Additional observations from a re-analysis of the deposited data

Results flagged for a closer look

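The following differences between effects passed the test of the difference itself (limma, adjusted p at or under 0.05). All are log2 values, positive where the first named effect was the larger, and no explanation was tested.

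The effect of olaparib in the presence of the higher CDDP dose differed from that in its absence in both lines. In SUM1315 cells the difference was -1.25 for HSPE1, -1.04 for HSPA1A, -0.99 for HSPB1, -0.76 for HSP90AA1 and -0.51 for HSPA8. In MDA-MB-468 cells it was -0.94 for HSPA1A, -0.78 for HSPA8, -0.39 for DNAJA1, -0.29 for HSPE1, -0.27 for DNAJB1 and -0.19 for HSPH1. Of these, HSPH1 was lost with no filter, with the replicate block, with only the groups compared, with edgeR and in 7 of 12 fits without 1 library. HSPE1 was lost with no filter (adjusted p = 0.103), with only the groups compared (0.0629) and in 5 of 12 such fits (up to 0.204), and DNAJB1 without the first untreated library (0.0558). The SUM1315 difference of HSPA1A was lost in 4 of 12 such fits (up to 0.0661). All SUM1315 differences of this kind rest on the untreated SUM1315 libraries, which stood apart.

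The effect of the higher CDDP dose in OlaR cells differed from that beside olaparib in parental cells. In SUM1315 cells the difference was 0.74 for HSPA8 and 0.51 for DNAJA1. In MDA-MB-468 cells it was 1.24 for HSPA1A, 0.63 for HSPA8, 0.57 for DNAJA1, 0.36 for DNAJB1 and 0.29 for HSPE1. The DNAJA1 call in SUM1315 cells was lost in 11 of 12 and the HSPE1 call in 10 of 12 fits without 1 library. These differences and those of the olaparib effect above share the step from olaparib to olaparib with CDDP, with opposite signs.

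Between lines, as SUM1315 minus MDA-MB-468, the olaparib response differed by 1.29 for HSPA1A, 0.78 for HSPA1B, 0.65 for HSPB1, 0.61 for HSPE1, -0.35 for HSPD1 and -0.49 for HSPH1. With only the groups compared, HSPA1B and HSPD1 did not pass (adjusted p = 0.0705 and 0.127), nor did HSPA1B without the second SUM1315 olaparib library (0.0612) or HSPD1 without the third untreated SUM1315 (0.0783) or the third MDA-MB-468 olaparib library (0.0685). The response to the higher CDDP dose differed by 1.27 for HSPE1, 0.96 for HSPA1A, 0.95 for HSPB1, 0.72 for HSP90AA1, 0.55 for HSPH1 and -0.52 for DNAJB1. The differences in the responses to olaparib and to CDDP rest on the untreated SUM1315 libraries, which stood apart. The DNAJB1 difference for CDDP was -0.30 (adjusted p = 0.067) without the third of these libraries and did not pass with only the groups compared (0.0639). The difference of OlaR from olaparib-treated cells differed by 0.53 for HSPA8, -0.34 for HSPB1, -0.37 for HSPH1, -0.48 for HSPD1 and -0.65 for DNAJA1. The response of OlaR cells to the higher CDDP dose differed by -0.44 for HSPB1.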

How the results depend on the processing

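No direction of a called gene reversed under any alternative. Of 260 gene values, 113 passed. Of these calls, 11 were lost with no filter, 10 with a fit of only the groups compared (9 others gained) and 1 each with a pseudocount of 0.5, edgeR and edgeR with DESeq2 size factors (1 and 3 gained with edgeR). None was lost with a pseudocount of 5 or with DESeq2 (6 gained). Over all fits without 1 library, 86 of 894 calls were lost and 28 gained. Scaling moved the median of all genes by at most 0.04.

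With a fold change of at least 2 required, the number of the 10 genes that passed in SUM1315 cells was 3 for olaparib, 1 for 2 µM CDDP, 1 for 4 µM CDDP, 0 and 0 for adding 2 or 4 µM CDDP to olaparib, 1 for the combination against 4 µM CDDP, 2 for OlaR and 0 for 4 µM CDDP in OlaR cells. In MDA-MB-468 cells it was 0 for olaparib, 0 and 0 for CDDP, 0 and 1 for adding 1 or 2.5 µM CDDP to olaparib, 0 for the combination against CDDP, 3 for OlaR and 0 and 0 for CDDP in OlaR cells. With no filter it was 0 and 1 for adding 2 or 4 µM CDDP to olaparib and 1 for the interaction of OlaR with CDDP in SUM1315 cells, and 0 for 2.5 µM CDDP in MDA-MB-468 OlaR cells. With only the groups compared it was 4 for 4 µM CDDP in SUM1315 OlaR cells, 2 for 2.5 µM CDDP, 2 for adding 1 µM CDDP to olaparib and 2 for 2.5 µM CDDP in OlaR MDA-MB-468 cells, and 2 between lines for the last step. For 2.5 µM CDDP in OlaR MDA-MB-468 cells it was 0 with HSPA1A and HSPA1B summed and 2 with DESeq2.

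Without 1 library, the SUM1315 number ranged from 6 to 7 for olaparib, 4 to 6 and 5 to 7 for CDDP, 0 to 1 and 1 to 2 for adding CDDP to olaparib, 3 to 4 for the combination against CDDP, 6 to 7 for OlaR, 0 to 0 and 2 to 3 for CDDP in OlaR cells, and 1 to 2 and 4 to 7 for the OlaR and olaparib interactions. In MDA-MB-468 cells, in the same order, it ranged from 8 to 9, 5 to 8, 1 to 2, 3 to 5, 6 to 8, 4 to 5, 9 to 9, 0 to 1, 0 to 1, 4 to 5 and 4 to 6. Between lines it was 5 to 7, 5 to 6, 5 to 6 and 1 to 2. The cause was not tested.

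The labels number the replicates 1 to 3 in each condition, but libraries of the same number did not deviate together. Their mean correlation was 0.00072 in SUM1315 cells and -0.0045 in MDA-MB-468 cells, against -0.00033 and 0.0023 for different numbers. With a replicate block, the number passing went from 4 to 5 for 2 µM CDDP, from 2 to 3 for 4 µM CDDP in OlaR cells and from 5 to 6 for the olaparib interaction in SUM1315 cells, and from 5 to 4 and 6 to 5 for the interactions in MDA-MB-468 cells, with no other number changed.

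Among all genes, counts moved by over 1.5 times for adding 2 µM CDDP to olaparib in SUM1315 cells (494, against 757 with only the groups compared and 772 with DESeq2), for the combination against 4 µM CDDP (1686 and 2697), for 2 µM CDDP in OlaR cells (187 and 89 with edgeR), for adding 1 µM CDDP to olaparib in MDA-MB-468 cells (685 and 321), for 1 µM CDDP in OlaR cells (619, against 377 and 367 with edgeR) and between lines for the last step (786, against 451 and 416). Leaving out 1 library moved them as far in SUM1315 cells for adding 2 µM CDDP to olaparib (152 to 258 without replicate 1 or 2 of olaparib or of the combination), adding 4 µM CDDP (1108, and 573 to 681 without olaparib replicate 1 or 2 or combination replicate 2 or 3), the combination against 4 µM CDDP (1066 without combination replicate 3), 2 µM CDDP in OlaR cells (at most 123 without any OlaR replicate or CDDP replicate 1 or 3) and 4 µM CDDP in OlaR cells (2199, and 1386 without CDDP replicate 1). In MDA-MB-468 cells it did so for adding 1 µM CDDP to olaparib (453 without olaparib replicate 2), the combination against 2.5 µM CDDP (1551, and 1022 without combination replicate 3) and 1 µM CDDP in OlaR cells (289 to 371 without OlaR replicate 1 or 2 or CDDP replicate 2 or 3). The shares of all genes given for these comparisons rest on the counts.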
